A study of Mus musculus with 36 samples.

Results

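The 30 genes described here encode subunits of the Polycomb repressive complexes 1 and 2 (PRC1 and PRC2). They were taken by name from a table of 25965 genes, in which all 30 have a row, 10 for PRC2 and 20 for PRC1. Expression was measured by RNA-seq in female C57/Bl6 mouse embryonic stem cells (mESCs) of the Xmas system, in which GFP marks one copy of the X chromosome and mCherry the other, both knocked in at Hprt. Cells expanded in 2i medium, which holds mESCs in the naive state, were weaned into serum medium without LIF and differentiated without a directing signal, and RNA was collected daily from day 0 to day 8. The labels name no other genotype for any group, and the groups differ by day, line and label. Whether every library kept both copies of the X chromosome is not given in the labels. Each of the 9 days has 4 libraries, named X14 double, X14 single, X18 double and X18 single, where X14 and X18 are cell lines. The words double and single are not explained in the labels and serve only as names here. The labels do not tell whether the libraries of a day came from separate cultures, so the p-values measure the spread between these libraries.

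PRC2 methylates histone H3 at K27 through EZH1 or EZH2, held in a core with EED, SUZ12 and RBBP4 or RBBP7. Accessory proteins (the Polycomb-like proteins PHF1, MTF2 and PHF19, or JARID2 and AEBP2) sort the core into PRC2.1 and PRC2.2. PRC1 ubiquitylates histone H2A through RING1 or RNF2 (RING1B), paired with one of the PCGF proteins. Canonical PRC1 adds a CBX protein, which reads methylated H3K27, and a PHC protein, whereas variant PRC1 carries RYBP or YAF2. In differentiating female mESCs these complexes are known for silencing developmental genes and for modifying the inactive X chromosome, where PRC1 with PCGF3 or PCGF5 acts downstream of Xist RNA.

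Levels are given as RPKM (reads per kilobase of exon and per 1000000 reads of the library), in the order X14 double, X14 single, X18 double and X18 single wherever 4 values follow each other. Libraries held 612740 to 2445826 reads in genes, and 3 reads corresponded to 1.04 to 3.90 reads per 1000000, so members with few reads are named as such. A gene was called higher or lower when its Benjamini-Hochberg adjusted p in limma was under 0.05 over the 14612 genes tested, and all 30 members passed the filter on low values. Day 0 carried pluripotency markers of mESCs, with 1479 to 1995 RPKM summed over 8 genes that include Pou5f1 and Sox2. Some libraries stood apart. Expression of X-linked relative to autosomal genes was lower in X14 double than in X14 single on day 0 (log2 -0.72 and 0.63), the opposite order to every other day and line. The balance of long against short genes was lowest on day 0 in X18 (log2 -1.47 and -1.01, against 0.45 and -0.50 in X14) and positive on day 8 in X14 (0.98 and 0.61). Only some of the results that rest on these libraries are also given without them, or with the length trend removed. For the others no such value is shown. Among these are the rises of Jarid2, Phc1 and L3mbtl2 from day 0 to day 4. Their values in those fits are not given here, so how far they depend on the day 0 libraries is left unstated. These are bulk libraries, in which fewer cells of a type and less RNA per cell cannot be told apart.

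The promoters of 4 members show the sequences in front of genes that changed in either direction. Suz12 and Mtf2 were lower and Ezh1 and Phc2 higher on day 8, and for each the start in RefSeq (GRCm38.p6) is the start in the deposited table. RefSeq promoters were matched for 26 of the 30 members. Each line holds the 250 bases before the start, 5′ to 3′ on the strand of the gene, and capitals mark the motifs searched on both strands: E2F-type sites (TTTCGCGC, TTTCCCGC, TTTGGCGC or TTTGCCGC) and the CCAAT box.
Suz12, chr11:79992856-79993105 (+): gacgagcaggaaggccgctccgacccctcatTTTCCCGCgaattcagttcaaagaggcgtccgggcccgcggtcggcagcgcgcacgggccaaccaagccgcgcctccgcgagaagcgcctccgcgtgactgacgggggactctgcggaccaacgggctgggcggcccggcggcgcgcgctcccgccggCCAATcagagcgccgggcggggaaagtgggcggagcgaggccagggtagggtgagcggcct
Mtf2, chr5:108065424-108065673 (+): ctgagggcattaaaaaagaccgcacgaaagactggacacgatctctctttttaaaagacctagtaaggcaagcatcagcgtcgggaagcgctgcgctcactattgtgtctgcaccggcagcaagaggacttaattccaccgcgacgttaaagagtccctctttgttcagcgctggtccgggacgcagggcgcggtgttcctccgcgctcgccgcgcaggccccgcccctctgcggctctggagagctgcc
Ezh1, chr11:101226464-101226713 (-): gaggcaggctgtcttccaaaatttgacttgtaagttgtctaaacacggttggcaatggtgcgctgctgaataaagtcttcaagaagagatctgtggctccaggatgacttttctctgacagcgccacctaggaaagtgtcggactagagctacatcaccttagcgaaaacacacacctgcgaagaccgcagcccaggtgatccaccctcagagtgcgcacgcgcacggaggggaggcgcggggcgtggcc
Phc2, chr4:128654452-128654701 (+): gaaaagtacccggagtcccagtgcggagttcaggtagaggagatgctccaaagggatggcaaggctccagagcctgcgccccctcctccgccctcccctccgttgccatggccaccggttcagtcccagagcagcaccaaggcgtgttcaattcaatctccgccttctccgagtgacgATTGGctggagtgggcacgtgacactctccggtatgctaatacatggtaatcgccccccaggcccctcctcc
The Suz12 window holds TTTCCCGC 219 bases and CCAAT 61 bases before the start. That of Phc2 holds CCAAT on the other strand 72 bases before the start, and those of Mtf2 and Ezh1 hold none of these letters. An E2F-type site was found in 1.86% of all 32851 RefSeq promoter windows of this length and in 2 members (Suz12 and Phf19), and CCAAT in 33.8% of all windows and in 11 members. The member figures count genes with a match in any of their windows, 38 for the 26 members. They are therefore not comparable with the shares of windows. RefSeq lists 3 promoters for Phc2 and 2 for Mtf2, of which only that at the start in the deposited table is printed.

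The first question was when the subunits changed. On day 1 no member was called (limma, 3 at an unadjusted p under 0.05), where 0.0684% of all genes were. On day 2, 6 members were higher and 1 lower than on day 0 (4.29% of all genes called). Day 3 had 7 higher and 3 lower (13.4%), day 4 had 9 higher and 5 lower (25.8%, of which 16.3% higher and 9.42% lower) and day 5 had 7 higher and 6 lower (35.8%). The counts were 11 and 9 on day 6 (44.3%), 9 and 6 on day 7 (46.3%) and 8 and 7 on day 8 (45.7%, of which 29.2% higher and 16.5% lower). With a log2 fold change of at least 1 as a further condition, 12 members were called on day 4 (18.6% of all genes) and 9 on day 8 (35%). On days 2 to 6 the members were called in a larger share than all genes, by the least on day 5, a difference given without a test, and on days 7 and 8 the shares were close. Over all days 24 of 30 changed (65.2% of all genes), and Ring1, Pcgf2, Cbx2, Phc3, Rybp and Scmh1 did not pass. With the replicate number as a block Ring1 passed as well (adjusted p = 0.0182). The median log2 fold change of the members on day 8 was 0.0031, against 0.23 over all genes. By complex, of the 10 PRC2 genes 2 were higher and 5 lower on day 8, and of the 20 PRC1 genes 6 were higher and 2 lower. The share of PRC1 genes called higher was close to the 29.2% of all genes. The PRC2 count includes Suz12, whose call was lost without the X14 libraries of day 0. The difference between the complexes was not tested. Without the X14 libraries of day 0, 15 members were called on day 8, but not the same ones, and 19 instead of 14 on day 4. On day 8 Suz12 and Yaf2 lost their calls, while Phc1 and L3mbtl2 gained them. The share of all genes called in that fit is not given here, so these counts are no result about the members. The libraries then left for day 0, both X18, had the lowest balance of long against short genes (log2 -1.47 and -1.01).

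**Figure D1:**
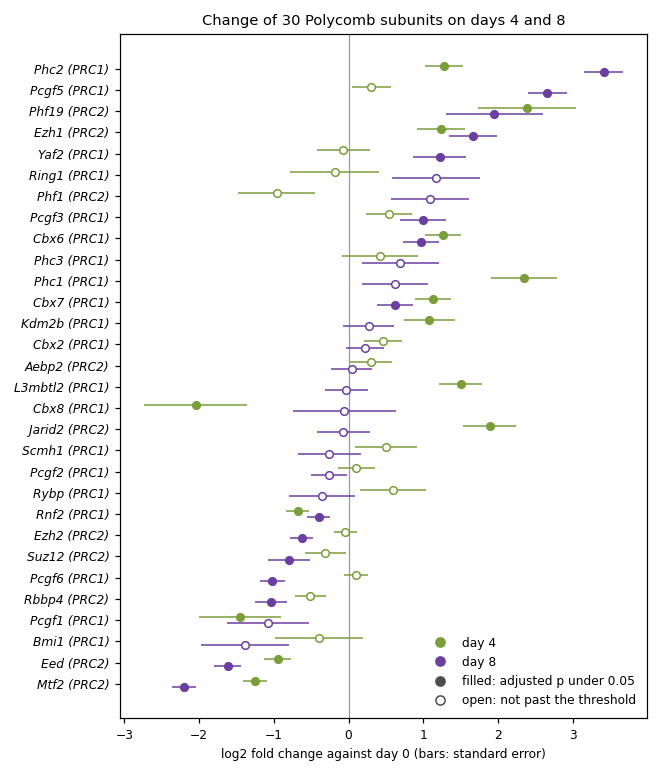
Log2 fold change against day 0 of each of the 30 subunits on day 4 (green) and day 8 (purple), with bars of 1 standard error and filled points for adjusted p under 0.05 (limma, 4 libraries a day). Phc2 lies farthest to the right on day 8 at 3.41 and Mtf2 farthest to the left at -2.20, while Jarid2, Phc1 and L3mbtl2 lie to the right on day 4 and close to 0 or not called on day 8.

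Of the 2 catalytic subunits of PRC2, Ezh2 fell and Ezh1 rose. Ezh2 encodes the methyltransferase that dominates in dividing cells, and Ezh1 the one with weaker activity that is known from resting cells. Ezh2 (chr6:47530274-47595341) stood at 44.1, 40.0, 28.9 and 38.7 RPKM on day 0 and at 20.02, 28.0, 21.3 and 29.0 on day 8. The groups overlapped by 1 library, since X18 double of day 0 lay just below X18 single of day 8. The log2 change was -0.63 (SE 0.15, adjusted p = 0.00119, limma), and the call was lost when only the libraries of days 0 and 8 entered the fit. Before that, Ezh2 kept within 33.9 to 49.1 RPKM in all 16 libraries of days 1 to 4, and day 5 was the first day it was called lower (log2 -0.49). It was called lower on day 6 and not on day 7 (log2 -0.33, adjusted p = 0.0743).

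Ezh1 (chr11:101191115-101226463) had 4.98, 2.18, 1.52 and 2.87 RPKM on day 0, from 11 to 80 reads. On day 4 it had 5.06, 6.26, 6.28 and 7.23 RPKM, on day 5 8.21, 14.9, 17.6 and 14.5, and on day 8 12.002, 7.90, 9.24 and 5.44. All libraries of days 4, 5, 7 and 8 lay above all of day 0. Its log2 change reached 1.23 by day 4 (adjusted p = 0.0047) and 2.34 by day 5 (adjusted p = 7.83e-07), and stood at 1.66 on day 8 (SE 0.32, adjusted p = 8.02e-05, limma). The call of day 4 was lost without replicate 3 (log2 0.96) and when only days 0 and 4 entered the fit. On day 6 the mean was 6.84, with both libraries labelled single at 4.81 and 4.83.

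Of the core subunits Eed, Rbbp4 and Suz12 were called lower on day 8, and the call of Suz12 was lost without the X14 libraries of day 0. Rbbp7, which is not among the members and is named after its values were seen, rose (log2 1.99, adjusted p = 6.76e-06). Eed (chr7:89954656-89980983) encodes the subunit that binds methylated H3K27 and stimulates the enzyme. It held 118.7 to 130.6 RPKM in the 4 libraries of day 3 and 52.4, 53.7, 73.4 and 68.5 on day 4, so its drop fell between these days. On day 8 it stood at 26.0, 42.9, 36.1 and 54.7, all below the 90.3 to 149.7 of day 0 (log2 -1.62, SE 0.18, adjusted p = 7.64e-09, limma). Both libraries labelled double were below the single library of the same line on day 8. Eed shares up to 261 exon bases with a transcript on the opposite strand, and the strand setting of the counting is not given in the sources used here.

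Rbbp4, a histone-binding protein shared with other chromatin complexes, was at 86.9, 115.7, 159.6 and 160.6 RPKM on day 0. It was first called lower on day 5, or on day 4 with the replicate number as a block (adjusted p = 0.0409), and on day 8 had 44.5, 67.6, 54.2 and 88.6 (log2 -1.04, SE 0.21, adjusted p = 0.000125). The X18 single library of day 8 reached into the range of day 0. Rbbp4 shares 796 exon bases with Sync on the other strand.

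Suz12, the scaffold of the core whose promoter is printed above, differed between lines on day 0, with 97.8 and 85.3 RPKM in X14 and 44.3 and 39.5 in X18. On day 8 the values were 42.5 and 45.6 in X14 and 30.3 and 27.2 in X18, so that every library lay below the day 0 library of the same line and label. Day 8 was the one day on which it was called lower (log2 -0.80, SE 0.28, adjusted p = 0.0183), and without the X14 libraries of day 0 the change was -0.24 and not called. The call was also lost without replicate 1 or 2 and with days 0 and 8 alone in the fit.

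The accessory subunits moved in opposite ways. Mtf2 (chr5:108065674-108109004), the Polycomb-like protein that guides PRC2.1 to CpG islands in mESCs, had the largest fall of the 30 members on day 8. It stood at 92.4, 86.0, 82.8 and 83.9 RPKM on day 0. The daily mean passed through 53.0 on day 3, 36.3 on day 4 and 26.0 on day 5 to 18.9 on day 8, with 18.4, 22.2, 15.2 and 19.7 in the libraries of that day. From day 2 on no library overlapped with day 0. The log2 change was -0.70 on day 3 (adjusted p = 0.00266), -1.25 on day 4 and -2.20 on day 8 (SE 0.16, adjusted p = 2.51e-13, limma).

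Its relatives Phf1 and Phf19 were low. Phf19 had 0 to 9 reads a library on day 0 and a mean of 0.34 RPKM, with no read in X18 double. Its log2 change was largest on day 3, with 3.97, 3.28, 5.26 and 2.42 RPKM (log2 3.52, adjusted p = 0.00042). Day 8 had 2.68, 0.965, 1.73 and 0.47 from 2 to 26 reads (log2 1.95, adjusted p = 0.0144). Since a library without a read enters with a fixed small value, the size of these folds depends on that value, and the day 8 call was lost without replicate 2 or 3 (log2 1.80 and 1.52). Phf1 had 2.86, 1.33, 1.27 and 1.05 RPKM on day 0 and 2.99, 2.2004, 4.66 and 3.43 on day 8, a difference that did not pass (log2 1.09, adjusted p = 0.0835), and of its 2423 exon bases 1370 are shared with Cuta.

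Jarid2, which links PRC2.2 to ubiquitylated H2A, was highest in the middle of the course. It had 30.004, 24.8, 8.57 and 8.35 RPKM on day 0, 59.4, 68.8, 56.8 and 58.6 on day 3 and 61.2, 56.3, 64.3 and 45.2 on day 4. All libraries of both days lay above day 0 (log2 2.00, adjusted p = 0.000248, and 1.89, adjusted p = 0.000137). On day 8 it stood at 16.1, 18.5, 12.6 and 11.5 (log2 -0.07, adjusted p = 0.884), and the fall from day 4 to day 8 was called (log2 -1.96, adjusted p = 5.17e-05). How day 8 compared with day 0 depended on the processing, since Jarid2 was called lower with the length trend removed (log2 -0.72) and was higher by 0.77 (adjusted p = 0.0737) without the X14 libraries of day 0. Aebp2, its partner in PRC2.2, had means of 10.4 RPKM on day 0, 16.6 on day 2 and 10.1 on day 8 and was called on no single day against day 0.

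**Figure D2:**
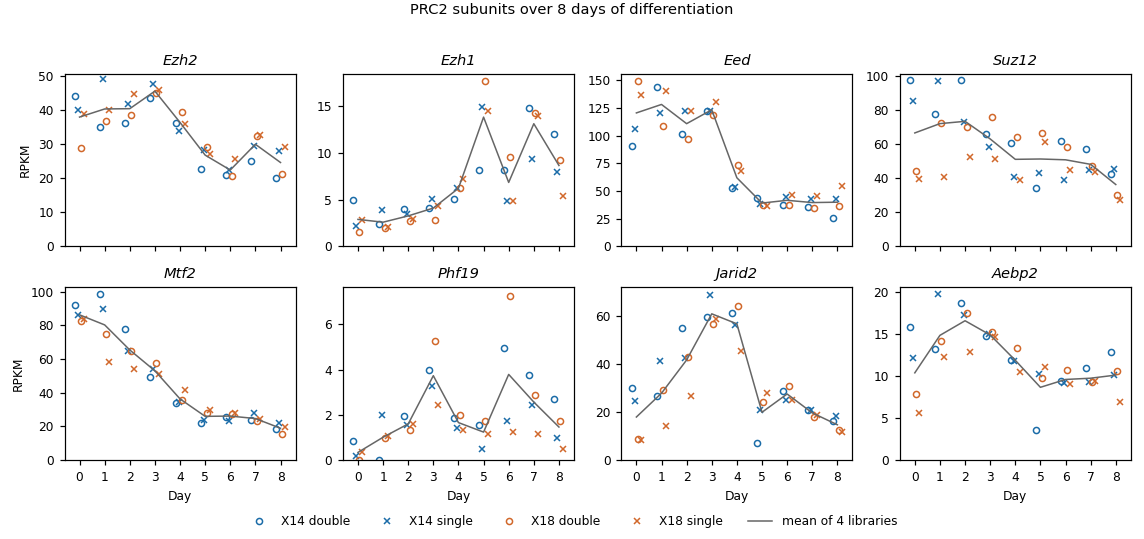
RPKM of 8 PRC2 subunits on days 0 to 8, with a point for each library (colour and shape give line and label) and a grey line through the daily mean. Mtf2 declines from 86.3 to 18.9, Eed drops between days 3 and 4, and Jarid2 peaks at 60.9 on day 3, while Ezh1 reaches 13.8 on day 5.

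Among PRC1 genes, the catalytic subunits differed in level. Rnf2 (RING1B), the main ubiquitin ligase of PRC1 in mESCs, had 56.2, 64.2, 72.6 and 64.0 RPKM on day 0. It dropped to 40.8, 40.2, 40.5 and 38.5 on day 4, where no library overlapped with day 0 (log2 -0.68, adjusted p = 0.00127), and stood at 44.2, 50.1, 46.3 and 53.8 on day 8 (log2 -0.40, adjusted p = 0.0322). The call of day 8 was lost whichever of the 4 replicates was left out. Ring1, its paralogue, lay at 0.40 to 6.27 RPKM over all libraries and rested on 1 to 33 reads a library. On day 8 it had 4.803, 4.94, 5.37 and 4.40, above all libraries of day 0 (1.27 to 3.69), but the change did not pass (log2 1.17, adjusted p = 0.104).

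The PCGF proteins, which define the versions of PRC1, split into 2 that rose, 1 that fell and 3 that were not called on day 8. Pcgf5 (chr19:36379067-36456192) showed the largest rise of the 6. It had 9.48, 8.37, 8.05 and 7.72 RPKM on day 0 and 11.3, 8.97, 11.5 and 9.80 on day 4, and was first called on day 5. On day 7 it reached 66.6, 46.9, 83.7 and 59.6, and on day 8 57.0, 43.9, 66.1 and 47.3 (log2 2.66, adjusted p = 4.94e-10, limma). Nearly all of the rise came after day 4 (log2 2.35 from day 4 to day 8, adjusted p = 1.45e-08). Pcgf5 was counted over 1659 exon bases, against 12629 in GENCODE M21, so its level is not comparable with those of other genes.

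Pcgf3, which like Pcgf5 forms a variant PRC1 that acts on the X chromosome under Xist, was higher from day 6. It had 10.2, 6.55, 5.28 and 3.40 RPKM on day 0 and 16.3, 13.2, 12.1 and 7.23 on day 8 (log2 0.996, adjusted p = 0.0081). The order of the 4 libraries was the same on both days, and each lay above the day 0 library of the same name. With the length trend removed the change was 0.35 and not called (Pcgf3 has 9544 exon bases), nor was it called without replicate 2 or 3 or with days 0 and 8 alone.

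Pcgf6 (chr19:47033619-47050845), the subunit of a variant PRC1 active at germline genes in mESCs, held its level and then fell. It had 48.5, 65.6, 48.5 and 43.1 RPKM on day 0 and 59.9, 54.0, 57.4 and 47.3 on day 4. On day 5 it stood at 31.6, 27.5, 30.1 and 36.3, below every library of day 0, and on day 8 at 23.0, 25.7, 24.5 and 27.2 (log2 -1.02, SE 0.16, adjusted p = 5.76e-06). From day 4 to day 8 it fell by 1.12 on the log2 scale (adjusted p = 2.45e-06).

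Pcgf1, the partner of KDM2B, had few reads, with a mean of 6.68 RPKM on day 0 and 1.52 on day 3 from 1 to 7 reads (log2 -2.35, adjusted p = 0.00463). It was called lower on days 2, 3, 4 and 6 and not on day 8 (log2 -1.08, adjusted p = 0.107). The day 4 call (log2 -1.46, adjusted p = 0.0483) was lost whichever replicate was left out. Bmi1 (PCGF4), a subunit of canonical PRC1, was called lower on days 6 and 7 (log2 -1.98 and -1.95, 0 to 13 reads a library) and on day 8 missed the threshold (log2 -1.38, adjusted p = 0.0523). With the replicate number as a block the day 8 change of Bmi1 passed (adjusted p = 0.0145). Pcgf2 (MEL18), the other canonical PCGF, kept daily means of 11.0 to 18.4 RPKM and was called on no day. In these cells its mean RPKM was above that of Bmi1 on every day.

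Of the CBX genes 2 rose on day 8. Cbx7, the main reader of methylated H3K27 in mESC PRC1, had 25.0, 13.4, 10.8 and 12.4 RPKM on day 0, reached 27.3, 42.2, 37.5 and 41.0 on day 5 and stood at 31.4, 22.4, 20.9 and 17.1 on day 8. No library of days 4 to 7 overlapped with day 0 (log2 1.13 on day 4 and 1.33 on day 5, adjusted p = 0.000825 and 6.82e-05). The day 8 call (log2 0.62, adjusted p = 0.0374) was lost with the length trend removed (0.093), after scaling to the 75th percentile (0.42) and without replicate 2, 3 or 4. Cbx6 went from 9.12, 6.33, 4.08 and 4.48 RPKM to 11.3, 9.73, 14.8 and 9.46 on day 8 (log2 0.97, adjusted p = 0.00128) and was called on day 2 and from day 4 on. Without replicate 3 the day 8 change was 0.67 and not called. Cbx6 shares 563 exon bases with Npcd on the same strand.

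Cbx2 and Cbx8, which are known for replacing CBX7 as cells leave the pluripotent state, were called higher than on day 0 on no day. Cbx2 had daily means of 6.94 to 10.3 RPKM and was called on no day. Cbx8 was near the limit of detection, with 3 to 8 reads a library on day 0, 0 to 2 on day 4 and 0 to 13 on day 8. It was called lower on days 3, 4 and 6 (log2 -2.05 on day 4, adjusted p = 0.0266), and at such read numbers the size of that change depends on the value written for a gene without reads. The day 4 call was lost whichever replicate was left out, and from day 4 to day 8 Cbx8 rose (log2 1.99, adjusted p = 0.025).

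Of the PHC proteins, which polymerize canonical PRC1, Phc2 rose most by day 8. Phc2 (chr4:128654702-128752881) had 1.96, 1.70, 1.02 and 1.33 RPKM on day 0 from 7 to 30 reads. It was called higher from day 2, had means of 3.60 on day 4 and 2.98 on day 5 and then climbed to 8.91 on day 6 and 11.5 on day 7. On day 8 it stood at 16.3, 17.5, 16.8 and 12.1 RPKM (log2 3.41, SE 0.26, adjusted p = 1.46e-12, limma), the largest rise among the members. All 4 libraries of day 8 lay above all of days 0 to 5. The promoter printed above lies directly before the start of this gene.

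Phc1 had its highest mean on day 4. It varied on day 0, with 60.7, 22.6, 6.40 and 20.9 RPKM, and reached 89.8, 130.4, 92.8 and 112.0 on day 4 (log2 2.34, adjusted p = 0.000147). On day 8 it had 22.8, 50.4, 21.9 and 41.3 (log2 0.62, adjusted p = 0.253), lower than on day 4 (log2 -1.72, adjusted p = 0.00274). Without the X14 libraries of day 0 the day 8 change was 1.46 and called. Phc3 stayed at daily means of 0.88 to 1.44 RPKM and was called on no day.

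Of the 2 proteins that mark variant PRC1, Yaf2 rose and Rybp did not pass. Yaf2 had 2.96, 10.1, 16.5 and 7.29 RPKM on day 0 and 14.97, 18.2, 19.1 and 20.3 on day 8 (log2 1.22, adjusted p = 0.00552), with 1 library of day 0 inside the range of day 8. Without the X14 libraries of day 0 its change was 0.72 and not called, while the rise from day 4 was called (log2 1.29, adjusted p = 0.00497). Rybp had 14.5, 9.56, 3.92 and 4.98 RPKM on day 0 and 14.4, 9.37, 3.51 and 2.13 on day 8 (log2 -0.35, adjusted p = 0.536). X14 lay above X18 on both of these days, but not on day 3, with 10.6, 13.1, 14.2 and 11.2 RPKM.

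Partners of canonical and variant complexes completed the set. L3mbtl2, an MBT-domain partner of PCGF6, was also highest in the middle of the course. It had 27.9, 26.0, 7.61 and 10.1 RPKM on day 0, 57.7, 31.7, 63.1 and 31.0 on day 4 (log2 1.503, adjusted p = 0.000196) and 15.98, 18.7, 12.6 and 13.4 on day 8 (log2 -0.03, adjusted p = 0.933). Without the X14 libraries of day 0 the day 8 change was 0.78 and called (adjusted p = 0.0138). Its fall from day 4 was called (log2 -1.54, adjusted p = 8.85e-05). Kdm2b, which brings variant PRC1 to unmethylated CpG islands, was higher on days 3, 4 and 6 (mean 10.8 RPKM on day 4 against 5.32 on day 0, log2 1.08, adjusted p = 0.0181) and not on day 8 (log2 0.27, adjusted p = 0.541). Its day 4 call was lost without replicate 2, 3 or 4 (log2 0.92 to 1.06). Scmh1, a canonical partner with daily means of 2.53 to 5.11 RPKM, was called on no day.

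Between day 4 and day 8, 5 members rose (Phf1, Pcgf5, Cbx8, Phc2 and Yaf2) and 8 fell (Ezh2, Eed, Rbbp4, Jarid2, Mtf2, Pcgf6, Phc1 and L3mbtl2), where 32.8% of all genes were called. This comparison was added after the data were seen. Its count was 20 with the length trend removed and 8 without replicate 3, and with the replicate block Ring1 (log2 1.36, adjusted p = 0.0369) and Kdm2b (-0.81, adjusted p = 0.0299) were added.

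**Figure D3:**
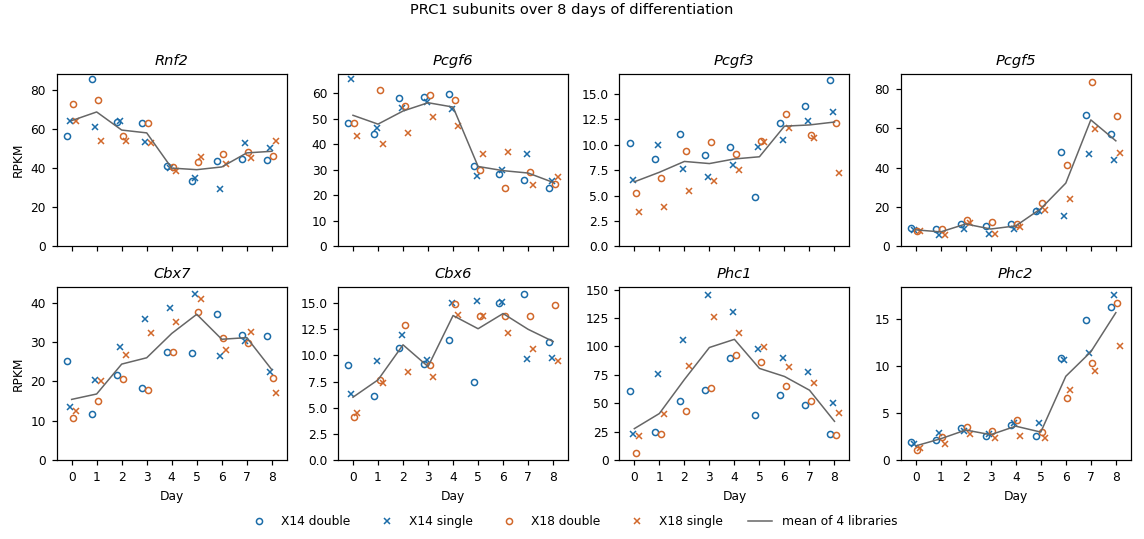
RPKM of 8 PRC1 subunits on days 0 to 8, with a point for each library and a grey line through the daily mean. Phc2 and Pcgf5 stay low until days 4 to 5 and reach 15.7 and 53.6 on day 8, Phc1 peaks at 106.3 on day 4, and Pcgf6 drops between days 4 and 5.

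Paralogue switches were examined as log2 ratios within each library, for 14 pairs. On day 8, 6 ratios lay outside the whole range of day 0, each with p = 0.0286 in a two-sided exact permutation test, the smallest that 4 against 4 libraries can give. After adjustment over the 14 pairs that p became 0.0667, so none passed. As an alternative chosen after the data were seen, limma was run on the ratios over all 36 libraries, and 7 of 14 pairs then passed on day 8 and 6 on day 4. The share of other gene pairs that would pass was not computed, and 45.7% of all single genes were called on day 8. The pairs were chosen with earlier results of these data known, so the counts do not set these pairs apart from others.

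In the catalytic pair, Ezh2 exceeded Ezh1 by 8.85, 18.4, 19.0 and 13.5 times on day 0 and by 1.67, 3.54, 2.31 and 5.33 times on day 8. Ezh2 remained the more abundant per length in every library of day 8. The ratio changed by log2 -2.29 (SE 0.33 and adjusted p = 1.1e-06 in limma), with -1.28 reached by day 4. On day 8 both libraries labelled double had a lower ratio than the single library of their line.

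Among Polycomb-like proteins, Mtf2 exceeded Phf1 by 32.3, 64.5, 65.2 and 79.5 times on day 0 and by 6.16, 10.1, 3.27 and 5.74 times on day 8 (log2 -3.29). Against Phf19 the change was -4.15, with 0 to 9 reads of Phf19 on day 0. In both cases Mtf2 stayed above its paralogue. The overlap of Phf1 with Cuta bears on the level of the first ratio.

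In PRC1, Rnf2 exceeded Ring1 by 17.1, 45.0, 57.3 and 17.4 times on day 0 and by 9.21, 10.1, 8.62 and 12.2 times on day 8 (log2 -1.57, limma adjusted p = 0.0375). Phc1 exceeded Phc2 by 30.9, 13.2, 6.29 and 15.8 times on day 0 and by 1.40, 2.87, 1.30 and 3.41 times on day 8 (log2 -2.79, limma adjusted p = 4.88e-06). The Pcgf3 to Pcgf5 ratio went from 1.07, 0.78, 0.66 and 0.44 to 0.29, 0.30, 0.18 and 0.15 (log2 -1.66), a change in which both genes rose and whose level depends on the short counted length of Pcgf5. On day 8 the lower paralogue thus stood closer to the other than on day 0 in the ligase and PHC pairs, without overtaking it in any library. For the ligases the rise of Ring1 itself did not pass. Their ratio varied between these days, with 10.1 in X14 single on day 4 and 91.6 in X18 double on day 7, the latter from 2 reads of Ring1.

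The ratio of Rybp to Yaf2 overlapped between days 0 and 8 (log2 -1.57, exact permutation p = 0.229) and passed in limma (adjusted p = 0.0375). On day 4 limma also passed the ratios of Jarid2 to Aebp2 (1.59), Pcgf6 to Pcgf1 (1.56), Cbx7 to Cbx8 (3.18) and Phc1 to Phc3 (1.92), none of which passed on day 8. The ratios of Cbx7 to Cbx2 and to Cbx6 on day 8 (log2 0.40 and -0.35) did not pass in either test.

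**Figure D4:**
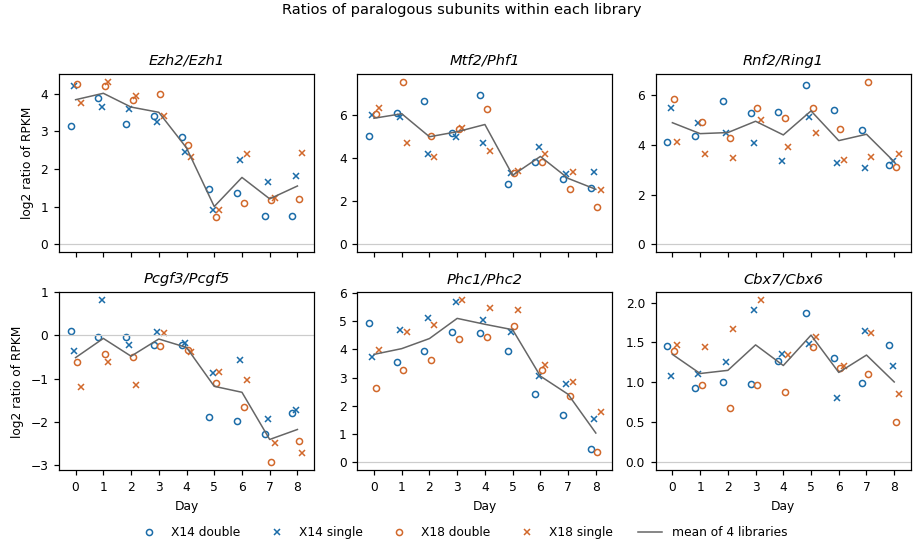
Log2 ratio of RPKM of 6 paralogue pairs in each library on days 0 to 8. Ezh2 to Ezh1, Mtf2 to Phf1, Rnf2 to Ring1, Pcgf3 to Pcgf5 and Phc1 to Phc2 lie lower in all 4 libraries of day 8 than in all 4 of day 0, while Cbx7 to Cbx6 overlaps (change -0.35).

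The design also allows the labels to be compared, over 18 libraries each with day and line in the fit. The balance of X-linked against autosomal genes was higher in double than in single on every day except day 0 of X14. On day 4 it was log2 0.48 and 0.54 in double (X14 and X18) and -0.51 and -0.53 in single. Its part in the differences below was not tested. Of the 30 members 6 differed, 3 higher and 3 lower in libraries labelled double, a share near that of all genes (15.7% called, 7.06% higher and 8.62% lower). Bmi1 was higher by log2 1.02 (SE 0.22, adjusted p = 0.0015), Pcgf5 by 0.49 (SE 0.088, adjusted p = 0.000267) and Scmh1 by 0.54 (adjusted p = 0.0286, limma). Ring1 was lower by log2 0.88 in double than in single (difference -0.88, adjusted p = 0.00985), as were Phc1 (-0.74, SE 0.16, adjusted p = 0.00177) and Kdm2b (-0.45, adjusted p = 0.0221).

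The direction was regular over days, but the 6 members were picked by a test over these same libraries, so this adds no support. Pcgf5 was higher in double on 9 of 9 days in both lines. Bmi1 was higher and Phc1 lower in double on 8 of 8 days from day 1 to day 8 in both lines, and on day 0 Phc1 had 60.7 RPKM in double and 22.6 in single in X14 but 6.40 and 20.9 in X18. Bmi1 rested on few reads. Both labels had 8 reads in X14 on day 5, 18 in X14 on day 8 and 9 in X18 on day 6. In those cases its RPKM differed only through the depth of the libraries. Scmh1 was higher on 7 of the 8 days, and Kdm2b and Ring1 were lower on 7 of the 8, in each line. The difference of Scmh1 was largest on day 4 in both lines, with 8.87 and 7.43 RPKM in double against 2.26 and 1.89 in single. Libraries of one line and label on successive days are not separate replicates of the label, so each label rests on 2 lines.

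Single lines and libraries decided how many members passed. Without day 0, whose X14 libraries had the reversed X-linked balance, 9 members were called (22.6% of all genes), with Ezh2 (-0.17), Suz12 (0.30) and Pcgf2 (-0.30) added. In X14 alone none was called (6 at an unadjusted p under 0.05, limma, where 0% of all genes passed), and in X14 without day 0 there were 3 (Bmi1, Pcgf5 and Phc1, 9.18% of all genes). In X18 alone there were 7 (Suz12, Rbbp4, Ring1, Bmi1, Pcgf3, Pcgf5 and Phc1, 8.49% of all genes). Without replicate 3 or without replicate 4, which leaves both labels in X14 alone, none was called, and without replicate 2 there were 2 (Bmi1 and Pcgf5). Kdm2b and Scmh1 lost their calls whichever replicate was left out.

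**Figure D5:**
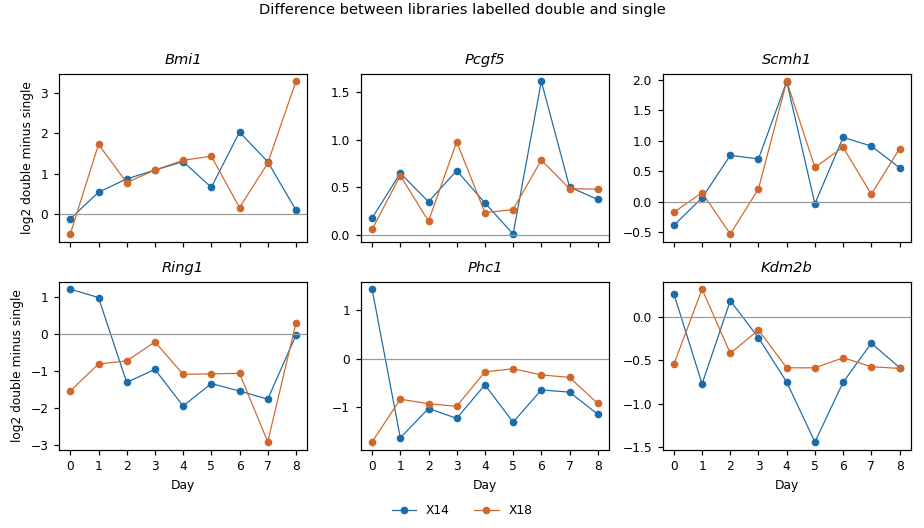
Log2 difference of double minus single for the 6 members that differed between labels, by day, with a line for X14 and one for X18. Pcgf5 lies above 0 on every day in both lines, and Bmi1 above and Phc1 below 0 on days 1 to 8 in both.

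Between the lines X14 and X18 no member differed (limma, 5 at an unadjusted p under 0.05), where 0.0205% of all genes did. No member's course over the days differed between labels (5 at an unadjusted p under 0.05, 0.924% of all genes called) or between lines (9 at an unadjusted p under 0.05, 0.0274%). Without day 0 the course of Cbx7 differed between labels (adjusted p = 0.0434, 4.19% of all genes called). On day 3 Cbx7 had 18.2 and 17.7 RPKM in double and 35.8 and 32.3 in single, and on day 8 it had 31.4 and 20.9 in double and 22.4 and 17.1 in single.

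Other genes of the Polycomb system and its targets give the setting. Of 38 other Polycomb-linked genes tested, 11 were higher and 3 lower on day 8 (median log2 0.46, against 0.23 over all genes), a share close to that of all genes for the higher (29.2%) and below it for the lower (16.5%). Sfmbt2, a mammalian relative of a subunit of the fly Pho repressive complex, went from a mean of 2.31 to 37.4 RPKM (log2 3.76, adjusted p = 2.51e-08) and Foxk1, a forkhead factor, from 0.95 to 6.79 (log2 3.31), while Wdr5 (-1.11) and Skp1a (-1.03) fell. Of 20 developmental genes known to be bound by PRC2 in mESCs, 11 passed the filter. On day 8, 4 of these were higher and 1 lower (median log2 0.80), a share close to the 45.7% of all genes called. Foxa2 and Hand1 had no read on day 0, so they could pass the filter only through later days. Genes with reads in too few libraries were left out, so the count and the median do not describe the 20 genes. Hand1, a transcription factor of heart and trophoblast, had no read on day 0 and 57.1 ± 38.7 reads per 1000000 (SD, n = 4) on day 8, at least 27.1-fold higher than the mean level of 3 reads per library on day 0. Olig2, a neural factor, was higher by log2 1.99 (adjusted p = 0.00856).

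The cells in which the subunits were measured changed as well. Of 8 pluripotency markers all were lower on day 8, and their summed RPKM went from 1479 to 1995 on day 0 to 130 to 312 on day 8. Pou5f1 and Sox2, which are among them, were not called on day 4 (log2 0.0089 and -0.46). The sum is therefore not one of the naive state alone. The 4 primed markers were higher on days 4 and 8, and their sum peaked on day 4 at 379 to 749, the time at which the means of Jarid2, Phc1 and L3mbtl2 stood at or near their highest. The 3 keratins of simple epithelium went from 1.47 to 6.02 RPKM on day 0 to 1491 to 3276 on day 8. Fibroblast markers were higher in 4 of 5 cases with sums of 15.8 to 26.4, endoderm markers in 1 of 3 tested with sums of 1.01 to 9.68, and neural markers in 1 of 4, with 1 lower. Of the markers named as higher, Fgf5, Col1a2, Acta2 and Foxa2 had no read on day 0 and could pass the filter only through later days. Of 14 proliferation genes 1 was higher and 6 lower on day 8, with Mki67 at log2 1.77 and Pcna and Mcm5 at -1.41 and -1.04. The part of these markers in the changes of the subunits was not tested.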

How the data were processed

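RNA was extracted with a Zymo Quick RNA kit and sequenced as 75 bp single-end reads. According to the methods of the study, tophat or hisat2 placed the trim_galore-trimmed reads on mm10 and SeqMonk quantified them, and the submitters' processing notes name bcl2fastq and TopHat2 2.0.12. The authors deposited log2 values. The table's name calls them log CPM, but their steps follow exon length, so the deposited unit is log2 RPKM, with 0.9 read written for a gene without reads. Whole reads (within 0.05) were recovered for 100% of the values and used for depth and RPM (reads per 1000000). Of the members 17 have the exon length of GENCODE M21, and 11 share exon bases with another gene.

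Genes with at least 1 RPM in 4 or more of 36 libraries were tested with limma 3.58.1 in R 4.3.3 (trend), with day as factor, all libraries in one fit and two-sided tests. Label and line were fitted with day. Same-numbered libraries share line and label by their names, and the replicate block was run as an alternative. By correlation 25 of 36 libraries matched their own number best. Replicates of a day differed by more than counting noise (lowest chi-square per gene 1.24). Count tests on recovered reads (voom), other filters, scalings and left-out libraries were alternatives. All members are named, and of the other lists the 2 largest rises and falls called with at least 10 RPM. Members and lists were chosen with earlier results of these data known. Floors cover counting error only.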

Additional observations from a re-analysis of the deposited data

Results flagged for a closer look

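In 14 of 270 sets of 4 libraries (5.19%), 1 library lay far from the other 3 by Dixon's test, where chance gives about 1 in 20. Of these, 5 were in X14 double of day 5, the shallowest library (612740 reads in genes), whose balance of long against short genes was log2 -0.99. There Rbbp4 was high at 115.8 RPKM, and Aebp2 (3.53), Pcgf3 (4.90), Cbx6 (7.44) and Phc1 (39.5) were low. X14 double also stood apart on day 7 for Rbbp4 (51.8, low), Aebp2 (11.0, high) and Cbx8 (0.68 from 5 reads, against none in the others). Ezh1 was low in X14 single on day 7 (9.39 RPKM against 13.97 to 14.8). X18 double stood apart on day 5 for Pcgf5 (22.2, high) and on day 6 for Aebp2 (10.7, high) and Rybp (8.68, low). Pcgf1 was low in X14 single on day 4 (0.88 RPKM from 2 reads), and Bmi1 had 0 reads in X18 single on day 8 against 2.201 to 2.63 RPKM in the others. The part of depth and of the length balance in these values was not tested.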

How the results depend on the processing

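Of 15 members called on day 8, 9 were called with only the 2 days in the fit and 9 with a log2 fold change of at least 1 (35% of all genes), and leaving out a replicate gave 10 to 15 (day 4, 9 to 13, fewest without replicate 3; all days, 18 to 22; day 8 against day 4, 8 to 14, and 20 with the length trend removed). Between labels the count was 11 after quantile normalization, 1 with a log2 difference of at least 1, 0 in X14 alone, 3 in X14 without day 0, and 0 to 5 with a replicate left out. The course by label had 1 without day 0, and the course by line 6 without a filter, and courses could not be fitted with a replicate left out. The replicate block added the call of Rbbp4 on day 4 (adjusted p = 0.0409) to those given above, lost none and moved no count by over 1.5 times, which gave 15 members on day 4, 16 on day 8 and 25 over all days. Where no share of all genes stands beside a count, that count is no result about the members.

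Of all genes called on day 8, 64.0% were higher in the deposited scaling, 49.7% with the length trend removed, 53.7% with 75th-percentile scaling and 48.5% with quantile normalization. Directions on day 8 turned for Aebp2 with the length trend removed (-0.56), at the 75th percentile (-0.16), after quantile normalization (-0.32) and in voom (-0.069), for Cbx2 (-0.16 and -0.19) and Kdm2b (-0.40 and -0.21) with the length trend removed and after quantile normalization, and for Phc3 after the latter (-0.019). Without the X14 libraries of day 0 they turned for Jarid2 (0.77), Pcgf2 (0.22), Rybp (0.35), Scmh1 (0.29) and L3mbtl2 (0.78). The X18 libraries then left for day 0 had the lowest balance of long against short genes. With a replicate left out the ranges crossed 0 for Jarid2 (-0.28 to 0.20), Pcgf2 (-0.45 to 0.018), L3mbtl2 (-0.29 to 0.22), Scmh1 (-0.54 to 0.011), Aebp2 (-0.092 to 0.16) and Cbx8 (-0.37 to 0.48), and for the ratios of Jarid2 to Aebp2 (-0.20 to 0.045), Pcgf6 to Pcgf1 (-0.15 to 0.36) and Phc1 to Phc3 (-0.52 to 0.57).

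The ratios of Pcgf6 to Pcgf1 and Phc1 to Phc3 also turned with log2(RPKM + 1) (-0.12 and 0.23) and with the length trend removed (-0.16 and 0.15). In limma, as deposited and with the replicate block, the ratios that passed on day 8 were Ezh2 to Ezh1 (-2.29), Mtf2 to Phf19 (-4.15), Mtf2 to Phf1 (-3.29), Rnf2 to Ring1 (-1.57), Pcgf3 to Pcgf5 (-1.66), Phc1 to Phc2 (-2.79) and Rybp to Yaf2 (-1.57), and with the block also Pcgf2 to Bmi1 (1.12). With the length trend removed the same 7 passed at -2.23, -4.17, -3.57, -1.55, -2.35, -2.69 and -1.94. The causes were not tested.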

Other observations

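Rbbp7, the X-linked paralogue of Rbbp4 and the other histone-binding subunit that PRC2 can hold, was singled out after its values were seen. It rose as Rbbp4 fell. Rbbp7 had 95.3, 175.1, 122.6 and 88.9 RPKM on day 0 and 625.5, 329.5, 661.8 and 333.3 on day 8 (log2 1.99, adjusted p = 6.76e-06, limma), in the order X14 double, X14 single, X18 double and X18 single. All libraries of day 8 lay above those of day 0, and on day 8 both libraries labelled double lay above both labelled single. Rbbp7 was 1.10, 1.51, 0.77 and 0.55 times Rbbp4 on day 0 and 14.1, 4.87, 12.2 and 3.76 times on day 8. On day 5 the ratios were 1.61, 1.37, 2.86 and 1.29, and on day 6 9.14, 3.57, 7.21 and 3.31, higher in every library than on day 5. Part of Rbbp4's exons overlaps Sync, as given above for its level.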
